A study of Rattus norvegicus with 24 samples.

Results

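Hspa5, Ddit3 and Atf3 are 3 rat genes whose transcripts serve as readouts of endoplasmic reticulum (ER) stress. They were taken by their Ensembl IDs (ENSRNOG00000018294 for Hspa5, ENSRNOG00000006789 for Ddit3 and ENSRNOG00000003745 for Atf3) from a table of 26689 gene IDs, and all 3 passed the filter on low counts, which kept 13760 IDs. The IDs carry their names from the rule that chose them, since the table itself holds no gene names.

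The cells were INS1, rat insulinoma cells that stand in for pancreatic beta cells, carrying a doxycycline-inducible mouse IRE1α (Ern1) transgene. All 8 groups carry the transgene, and each group holds 3 libraries. Uninduced cells received vehicle and no doxycycline, and were collected at 4 h and at 24 h. Induced cells received doxycycline with vehicle, with PAIR1 or with KIRA9, and were collected at the same times. Both compounds are modulators of the IRE1α kinase, and the labels give no dose, so differences between them compare the treatments as applied. No uninduced cells received a compound and none received doxycycline without the transgene, so effects of the agents outside induced IRE1α cannot be told apart from effects through it. The labels do not say whether the replicates came from separate cultures, so p-values measure the spread between these libraries, which may be technical. For 6 libraries, those of induced cells with vehicle, the characteristics give the opposite time to the titles, which the descriptions and column names follow. Times were taken from the titles, and values under the other reading are given with the alternatives.

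Library totals ran from 12.6 to 23.8 M counts. In 6 libraries 23 IDs, none of them a member, took 0.501 to 0.571% of the counts, whereas they took 0.017 to 0.0251% in the remaining 18. Those 6 were uninduced replicate 2 at both times, induced replicate 3 at 4 h, induced replicates 1 and 2 at 24 h and PAIR1 replicate 1 at 24 h. Calls lost without them are given beside the result or with the processing alternatives. Because IDs were not paired with symbols, the transgene, beta cell markers and other genes of the stress pathways were not analysed by name here.

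Unfolded protein in the ER is sensed by 3 membrane proteins, IRE1α, PERK and ATF6. IRE1α is a kinase and an RNase: it cuts Xbp1 mRNA so that an active transcription factor is made, and when strongly active it also degrades other mRNAs at the ER. PERK phosphorylates eIF2α, which lowers translation but favours ATF4, while ATF6 is released from the ER membrane as a transcription factor. Hspa5 encodes BiP, the main HSP70 chaperone of the ER lumen, and is a classical target of ATF6 and of spliced XBP1. Ddit3 encodes CHOP, a transcription factor downstream of ATF4 that is tied to cell death in prolonged stress. Atf3 encodes another stress-induced factor that acts with ATF4 and CHOP and also answers to other signals. Beta cells, which make large amounts of proinsulin, rely on this response.

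RefSeq sequences upstream of the annotated starts are shown for Hspa5 and Ddit3, the members for which one was available. Elements known to answer ER stress lie in such regions. The table used matched 2 of the 3 members. Each stretch is the 250 bases before the start in GRCr8, on the + strand, at chr3:38452766-38453015 for Hspa5 and at chr7:65001445-65001694 for Ddit3. Capitals mark matches to the motifs named after the sequences.
Hspa5: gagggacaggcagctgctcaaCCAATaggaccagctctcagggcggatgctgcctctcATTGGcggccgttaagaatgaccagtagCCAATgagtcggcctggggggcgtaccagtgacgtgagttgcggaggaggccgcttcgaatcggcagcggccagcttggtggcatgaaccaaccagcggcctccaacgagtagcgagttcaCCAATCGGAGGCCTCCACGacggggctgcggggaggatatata
Ddit3: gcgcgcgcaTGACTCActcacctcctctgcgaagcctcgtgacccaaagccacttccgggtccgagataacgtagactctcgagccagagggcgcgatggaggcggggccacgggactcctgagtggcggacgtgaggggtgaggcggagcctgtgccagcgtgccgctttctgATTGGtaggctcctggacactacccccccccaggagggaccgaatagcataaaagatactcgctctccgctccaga
The search covered both strands of 33469 RefSeq promoters, 250 bases each. The ER stress response element, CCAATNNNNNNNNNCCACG, which is known to be bound by NF-Y with ATF6, occurred in 22 of them (0.0657%). Hspa5 held 1 copy on the + strand, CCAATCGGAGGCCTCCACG, from 43 to 25 bases before the start. Its first 5 bases are also 1 of the 4 matches to the CCAAT box (CCAAT) in the Hspa5 stretch, a motif that 34% of promoters held. Ddit3 held 1 CCAAT box, on the - strand, and 1 AP-1 site (TGACTCA) from 241 to 235 bases before the start, which 4.05% of promoters held. On the - strand, that CCAAT box is followed by GCACG, at the place where the ER stress response element has CCACG. Only exact matches were counted, so this near match to the element was not. Inexact copies in the Hspa5 stretch were not searched for. TGACGTGG, a core known for spliced XBP1 and ATF6 (0.52% of promoters), the cAMP response element TGACGTCA (1.59%) and TGATGNAAT, a composite element of C/EBP and ATF factors (0.944%), had no match in either stretch. Bases farther upstream than 250 were not searched, so elements there would be missed. These are matches of letters only, and no binding was measured.

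The earliest question was whether induced IRE1α moved these genes within 4 h. None of the 3 genes was called. Hspa5, the chaperone gene, stood at 2985, 3147 and 3141 CPM (counts per 1 M counts, scaled by the TMM method) in the uninduced libraries. With induction it stood at 3057, 3076 and 3024 CPM, within the range of the uninduced libraries. Ddit3 was at 28.0, 28.2 and 24.9 CPM in uninduced and at 31.8, 28.6 and 29.9 in induced cells. These libraries did not overlap, but the log2 difference of 0.15 ± 0.07 (SE) was not called (adjusted p = 0.77 in edgeR's quasi-likelihood test, Benjamini-Hochberg adjusted). Atf3 was at 1.73, 2.42 and 2.66 CPM in uninduced and at 2.70, 1.48 and 3.29 in induced cells, with overlap. These Atf3 levels rest on 22 to 55 counts per library, and the 95% interval of its log2 difference ran from -0.53 to 0.86. Of the 13760 IDs tested, 0.298% were called in this comparison. DESeq2 called 0 of the 3 members, and 70 IDs in all. Ddit3 alone of the members had an unadjusted p under 0.05 in the edgeR test. The share of all IDs at that unadjusted threshold was not counted.

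**Figure D1:**
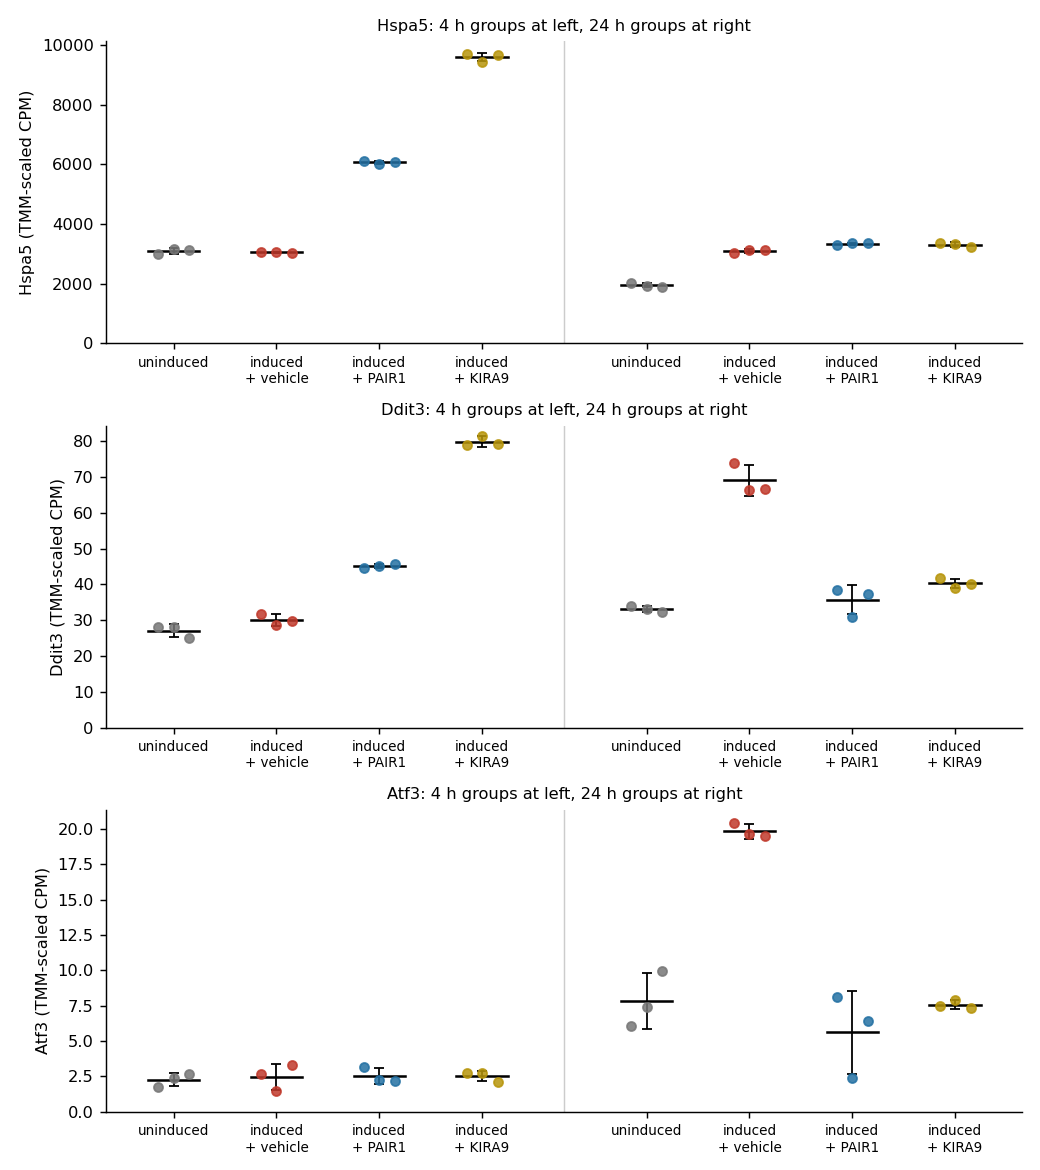
Level of Hspa5, Ddit3 and Atf3 in TMM-scaled CPM (y axes from 0) in each of the 24 libraries. Points are libraries, horizontal lines are group means and bars are SD (n = 3), with the 4 h groups left of the grey line. Hspa5 and Ddit3 are highest with KIRA9 at 4 h (means 9593 and 79.9), and Atf3 is highest in induced cells with vehicle at 24 h (mean 19.8).

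At 4 h the compounds raised Hspa5 and Ddit3 above the levels of induced cells with vehicle, and KIRA9 raised both further than PAIR1. The Hspa5 level was 6105, 5996 and 6093 CPM with PAIR1 and 9687, 9438 and 9653 with KIRA9. No library of either compound overlapped those of the vehicle groups or of the other compound. The rise over induced cells was 1.99-fold with PAIR1 (95% interval 1.92 to 2.05, adjusted p = 2.0e-18) and 3.14-fold with KIRA9 (3.04 to 3.25, adjusted p = 4.7e-23). In share of all counts, Hspa5 went from 0.301 ± 0.004% (SD, n = 3) in induced cells to 0.597 ± 0.004% with PAIR1 and 0.948 ± 0.009% with KIRA9. Ranked by count, it moved from place 12 of the table in each induced library to place 6 in each PAIR1 library and place 3 in each KIRA9 library.

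Ddit3, the CHOP gene, was at 44.6, 45.3 and 45.7 CPM with PAIR1 and at 78.9, 81.6 and 79.2 with KIRA9 at 4 h. Again all 3 libraries of each compound lay above all vehicle libraries. Ddit3 rose 1.50-fold over induced cells with PAIR1 (1.36 to 1.65, adjusted p = 7.0e-06) and 2.65-fold with KIRA9 (2.41 to 2.92, adjusted p = 5.1e-13). Atf3 did not share this rise. It was at 3.18, 2.26 and 2.14 CPM with PAIR1 and at 2.72, 2.72 and 2.09 with KIRA9, overlapping both vehicle groups. Its log2 differences from induced cells were 0.0025 ± 0.33 and -0.0033 ± 0.33, with 95% intervals from -0.69 to 0.69 and from -0.70 to 0.69, so changes of up to 1.62-fold and 1.61-fold lie within them.

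Of the 3 members, 2 rose with PAIR1 and the same 2 with KIRA9 at 4 h, where 2.31% and 6.01% of tested IDs were called higher. Among all tested IDs, ordered by log2 difference from induced cells, Hspa5 was number 101 from the top with PAIR1 and number 48 with KIRA9. Ddit3 was number 304 and number 77. Both comparisons use the same 3 induced libraries. Against uninduced cells, which are other libraries, Hspa5 was 1.96-fold (adjusted p = 1.4e-18) and Ddit3 1.67-fold (adjusted p = 2.0e-07) higher with PAIR1, where 1.56% of IDs were called higher. With KIRA9 they were 3.10-fold (adjusted p = 5.9e-23) and 2.95-fold (adjusted p = 7.1e-14) higher than in uninduced cells, where 5.44% of IDs were called higher.

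The compounds were then compared with each other at 4 h. PAIR1 left Hspa5 below the KIRA9 level, with a log2 difference of -0.66 ± 0.02 (adjusted p = 9.3e-15), and Ddit3 with -0.82 ± 0.07 (adjusted p = 1.2e-08). These are 2 of the 3 members, and 1.24% of tested IDs were called lower. For Atf3 the difference was 0.0058 ± 0.34, with an interval from -0.69 to 0.70.

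**Figure D2:**
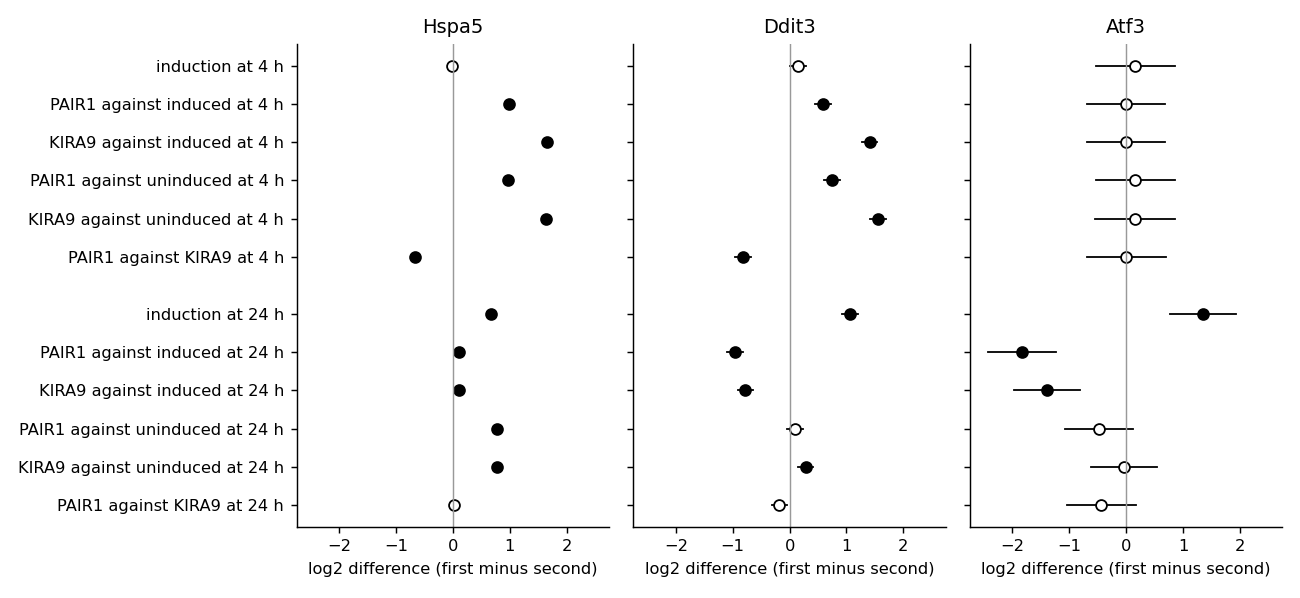
Log2 difference, first group minus second, of each gene in the 12 comparisons within a time point, with 95% intervals (horizontal lines, shorter than the symbol for Hspa5). Filled symbols passed an adjusted p of 0.05 and open symbols did not. At 4 h both compounds raise Hspa5 and Ddit3 and the Atf3 differences lie near 0, while at 24 h Ddit3 and Atf3 lie below induced cells and Hspa5 does not.

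At 24 h induction raised all 3 genes. Atf3 had the highest estimate, though its interval holds that of Ddit3. Hspa5 was at 2022, 1922 and 1900 CPM in uninduced and at 3030, 3147 and 3121 in induced cells, a 1.59-fold rise (1.54 to 1.64, adjusted p = 2.4e-17). Ddit3 went from 34.1, 33.2 and 32.3 to 74.1, 66.5 and 66.8 CPM, a 2.08-fold rise (1.90 to 2.29, adjusted p = 2.2e-12). Atf3 went from 6.05, 7.42 and 9.94 to 20.4, 19.6 and 19.5 CPM, a 2.55-fold rise (1.71 to 3.80, adjusted p = 0.00020). No induced library overlapped an uninduced one for any of the 3, though how many other IDs also separated fully was not counted. In these bulk samples, more transcript per cell and more cells with the transcript cannot be told apart. That was 3 of 3 members called higher, where 29.8% of tested IDs were called higher. Ordered by log2 difference, Atf3 was number 204, Ddit3 number 391 and Hspa5 number 1196 of 13760.

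The genes differed in their levels with the compounds at 24 h. With either compound Ddit3 and Atf3 were far below the induced level at 24 h, while Hspa5 was as high as in induced cells or slightly higher. Ddit3 was at 38.6, 31.0 and 37.4 CPM with PAIR1 and at 41.7, 39.1 and 40.1 with KIRA9. It was 0.52-fold the induced level with PAIR1 (0.47 to 0.57, adjusted p = 2.5e-11) and 0.58-fold with KIRA9 (0.53 to 0.64, adjusted p = 4.9e-10). Every compound library lay below every induced library.

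Atf3 was at 8.08, 2.37 and 6.42 CPM with PAIR1 and at 7.46, 7.92 and 7.36 with KIRA9. PAIR1 replicate 2, with 36 counts against 102 and 116 in the other two, was low for Atf3 and also the lowest of its group for Ddit3. Atf3 was 0.28-fold the induced level with PAIR1 (0.19 to 0.43, adjusted p = 1.0e-05) and 0.38-fold with KIRA9 (0.26 to 0.57, adjusted p = 0.00016). Leaving out any 1 of the 6 libraries compared kept the PAIR1 log2 difference between -2.16 and -1.46. Atf3 was number 63 from the bottom of all tested IDs with PAIR1 and number 260 with KIRA9. Ddit3 was number 330 and number 848.

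Hspa5 was at 3298, 3365 and 3361 CPM with PAIR1 and at 3364, 3348 and 3228 with KIRA9. These libraries lay just above the induced ones, by 1.08-fold (1.04 to 1.11, adjusted p = 0.00026) and 1.07-fold (1.04 to 1.10, adjusted p = 0.00073). This small rise depended on the scaling. Scaled by library totals alone, the log2 differences were -0.0011 (adjusted p = 0.97) for PAIR1 and -0.045 (adjusted p = 0.073) for KIRA9, and as shares of all counts the means were 0.335% in induced, 0.335% with PAIR1 and 0.325% with KIRA9. Without the 6 libraries that stood apart the log2 differences were 0.099 (adjusted p = 0.071) and 0.078 (adjusted p = 0.11). In these comparisons with induced cells, 1 member was called higher and 2 lower with each compound, where 30% and 24.9% of IDs were called higher and lower with PAIR1, and 32.3% and 30.6% with KIRA9.

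**Figure D3:**
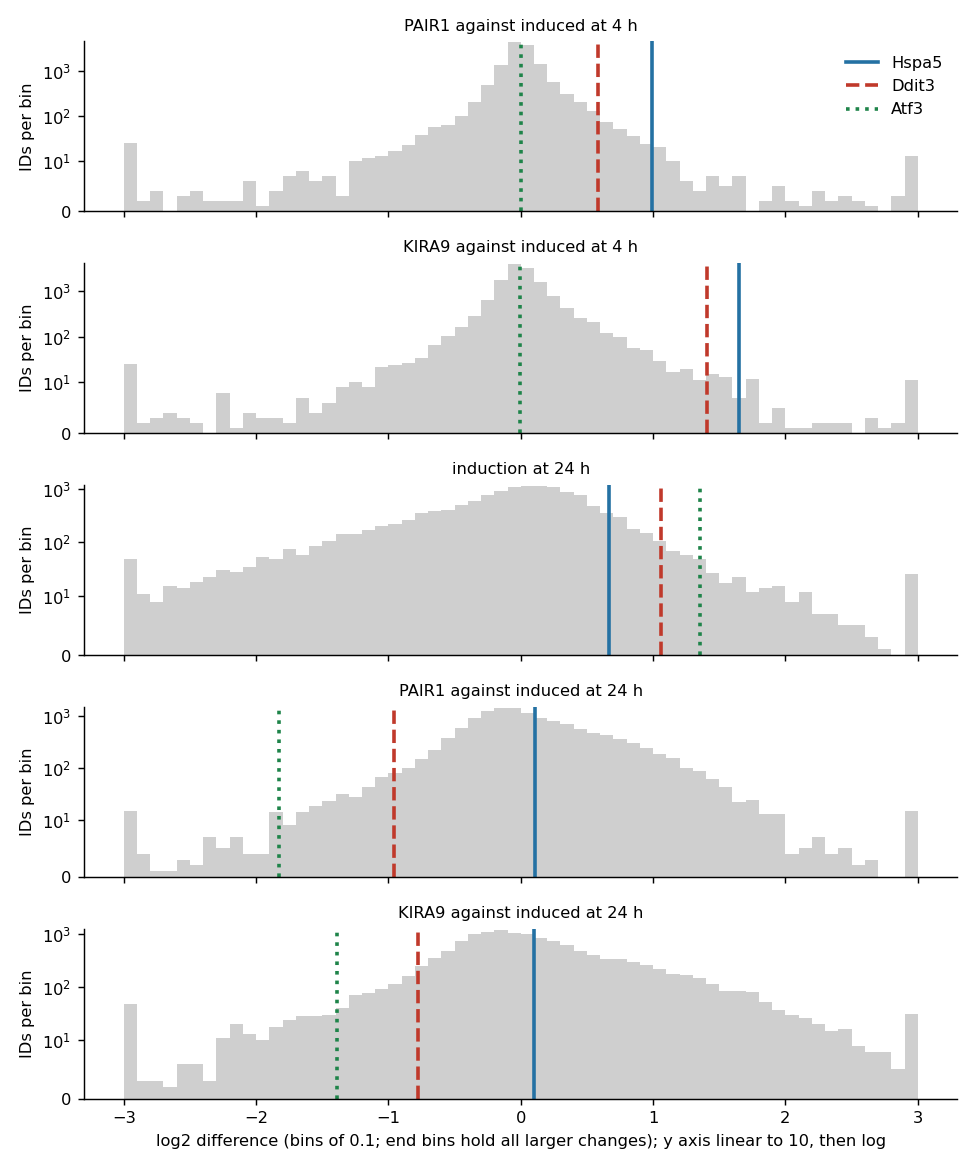
Number of tested IDs (y axis, linear up to 10 and logarithmic above) per bin of log2 difference (x axis) in 5 comparisons, with the values of Hspa5 (solid), Ddit3 (dashed) and Atf3 (dotted) as vertical lines. At 4 h Hspa5 and Ddit3 lie in the upper tail and Atf3 near 0. With a compound at 24 h Hspa5 lies near the middle, at 0.11 with PAIR1 and 0.096 with KIRA9, and Ddit3 and Atf3 lie on the lower side. Of all tested IDs, 2.39% lie below Ddit3 and 0.451% below Atf3 with PAIR1, and 6.16% and 1.88% with KIRA9.

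Against uninduced cells at 24 h, with the same compound libraries, only Hspa5 was called higher with both compounds. Hspa5 was 1.72-fold higher with PAIR1 (1.66 to 1.77, adjusted p = 1.3e-17) and 1.70-fold higher with KIRA9 (1.65 to 1.76, adjusted p = 1.3e-16). Ddit3 was not called with PAIR1 (1.07-fold, 0.97 to 1.18, adjusted p = 0.28) and was 1.21-fold higher with KIRA9 (1.10 to 1.34, adjusted p = 0.0033). Without PAIR1 replicate 2 the PAIR1 log2 difference was 0.19 and was called (adjusted p = 0.025). Atf3 was called with neither compound, at 0.72-fold with PAIR1 (0.47 to 1.09) and 0.97-fold with KIRA9 (0.65 to 1.46). The members called higher were 1 of 3 with PAIR1 and 2 of 3 with KIRA9, where 13.7% and 12.6% of tested IDs were called higher.

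On a scale from the uninduced mean (0) to the induced mean (100) of log2 CPM at 24 h, Hspa5 stood at 116 ± 2.4% with PAIR1 and 114 ± 4.9% with KIRA9 (SD, n = 3). Ddit3 stood at 9.31 ± 16% with PAIR1 and 26.6 ± 4.3% with KIRA9. Atf3 stood at -44.9 ± 68% with PAIR1, where PAIR1 replicate 2 alone lay at -122%, and at -0.92 ± 4.1% with KIRA9. Hspa5 thus stood about as far above uninduced cells with either compound as with vehicle, and Atf3 was on average no higher than in uninduced cells. These places are descriptions without a test, and both compounds are placed between the same 6 libraries. At 4 h induction was not called for Hspa5 (log2 difference -0.018), while PAIR1 and KIRA9 put it 1.99-fold and 3.14-fold above induced cells. Whether the 24 h level of Hspa5 holds part of that rise was not tested.

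The compounds did not differ detectably from each other at 24 h in any of the 3 genes: edgeR and DESeq2 both called 0 of 3. In this comparison edgeR called 16.3% of tested IDs at an adjusted p below 0.05. Ddit3 alone of the members had an unadjusted p under 0.05 in edgeR, a threshold at which the share of all IDs was not counted. The Hspa5 log2 difference between PAIR1 and KIRA9 was 0.012 with an interval from -0.034 to 0.059, so a difference above 1.04-fold lies outside it. The Ddit3 libraries did not overlap, all 3 being lower with PAIR1, and the difference was -0.18 with an interval from -0.32 to -0.038 (adjusted p = 0.078). Without PAIR1 replicate 1 it was -0.23 and was called (adjusted p = 0.031). The Atf3 interval was wide, from -1.04 to 0.17.

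Tests of the differences between times bore on the same patterns. The induction effect was larger at 24 h than at 4 h in all 3 genes, by a log2 difference of 0.69 ± 0.03 for Hspa5 (adjusted p = 1.9e-14), 0.90 ± 0.10 for Ddit3 (adjusted p = 3.3e-08) and 1.19 ± 0.43 for Atf3 (adjusted p = 0.026). In this test 22.5% of IDs were called higher. For Hspa5 the level of uninduced cells fell from 4 h to 24 h (log2 difference -0.67), while that of induced cells was not called different (0.022). The Atf3 call was lost when any 1 of 4 libraries was left out: it was 1.14 (adjusted p = 0.054) without uninduced 4 h replicate 2, 1.06 (0.072) without uninduced 4 h replicate 3, 0.94 (0.080) without induced 4 h replicate 2 and 1.03 (0.064) without uninduced 24 h replicate 1. Without the 6 libraries that stood apart it was 1.33 (adjusted p = 0.079). From 4 h to 24 h the gap between the compounds shrank for Hspa5 (0.67 ± 0.03, adjusted p = 1.0e-12) and Ddit3 (0.64 ± 0.09, adjusted p = 3.7e-05), and was not called for Atf3 (adjusted p = 0.66). There 2.16% of IDs were called higher. The effect of each compound on induced cells, a comparison added after the values were seen, was lower at 24 h than at 4 h in 3 of 3 members for PAIR1 and for KIRA9, where 17% and 22.4% of IDs were called lower.

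The levels also moved with time in each treatment. In uninduced cells Hspa5 was 0.63-fold its 4 h level at 24 h (adjusted p = 7.6e-15), Ddit3 was 1.23-fold (adjusted p = 0.0025) and Atf3 3.46-fold (2.21 to 5.43, adjusted p = 0.00018), where 13.6% of IDs were called higher and 13.5% lower. In induced cells, by contrast, Hspa5 was at 3052 ± 26 CPM at 4 h and 3099 ± 61 at 24 h (adjusted p = 0.41). The other members rose in induced cells, Ddit3 2.30-fold (adjusted p = 2.8e-13) and Atf3 7.90-fold (5.08 to 12.3, adjusted p = 1.4e-08), where 30.2% of IDs were called higher. Atf3 was number 21 of 13760 in this rise. With library totals alone, Hspa5 in induced cells was called higher at 24 h (log2 difference 0.15, adjusted p = 2.1e-06).

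With either compound Hspa5 and Ddit3 were lower at 24 h than at 4 h. Hspa5 went from 6065 ± 60 CPM at 4 h to 3342 ± 37 at 24 h with PAIR1 (0.55-fold, adjusted p = 3.2e-18), and from 9593 ± 135 to 3313 ± 74 with KIRA9 (0.35-fold, adjusted p = 2.2e-22). Ddit3 fell to 0.79-fold (adjusted p = 0.00033) and to 0.51-fold (adjusted p = 1.4e-10). Atf3 rose 2.22-fold with PAIR1 (adjusted p = 0.0065), with libraries that overlapped, and 3.02-fold with KIRA9 (adjusted p = 0.00046). Between the times 16.9% of IDs were called higher and 17.4% lower with PAIR1, and 15.7% and 13.9% with KIRA9. The PAIR1 rise of Atf3 was no longer called without PAIR1 24 h replicate 1 (log2 difference 0.82, adjusted p = 0.061) or without the 6 libraries that stood apart (0.82, adjusted p = 0.091).

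Ordered by level, Hspa5 ran from KIRA9 at 4 h through PAIR1 at 4 h to 5 groups at 3052 to 3342 CPM and then uninduced cells at 24 h. Within those 5 groups, PAIR1 and KIRA9 at 24 h overlapped, and so did induced cells at 24 h, uninduced cells at 4 h and induced cells at 4 h. Ddit3 ran from KIRA9 at 4 h (79.9 CPM) through induced cells at 24 h (69.1), PAIR1 at 4 h (45.2), KIRA9 at 24 h (40.3), PAIR1 at 24 h (35.7), uninduced cells at 24 h (33.2) and induced cells at 4 h (30.1) to uninduced cells at 4 h (27.0). Of its neighbours in that order, only PAIR1 and uninduced cells at 24 h overlapped. For Atf3 the induced cells at 24 h (19.8 CPM) stood 2.54-fold above the next group, uninduced cells at 24 h (7.80), and every later pair of neighbours overlapped. The means at 4 h lay between 2.27 and 2.53 CPM in all 4 treatments.

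Ratios of counts inside a library do not depend on how libraries are scaled. The log2 ratio of Ddit3 to Hspa5 counts was -5.89, -5.85 and -5.88 in uninduced and -5.35, -5.56 and -5.55 in induced cells at 24 h, so CHOP transcripts gained on BiP transcripts by 0.39 on the log2 scale with induction. With PAIR1 it was -6.42, -6.76 and -6.49 and with KIRA9 -6.33, -6.42 and -6.33. Both compounds thus put the ratio below that of either vehicle group in every library, by 0.68 and 0.49 below the uninduced mean. At 4 h the means were -6.84 ± 0.13 in uninduced, -6.66 ± 0.08 in induced, -7.07 ± 0.02 with PAIR1 and -6.91 ± 0.05 with KIRA9 (SD, n = 3), and KIRA9 overlapped the uninduced libraries.

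**Figure D4:**
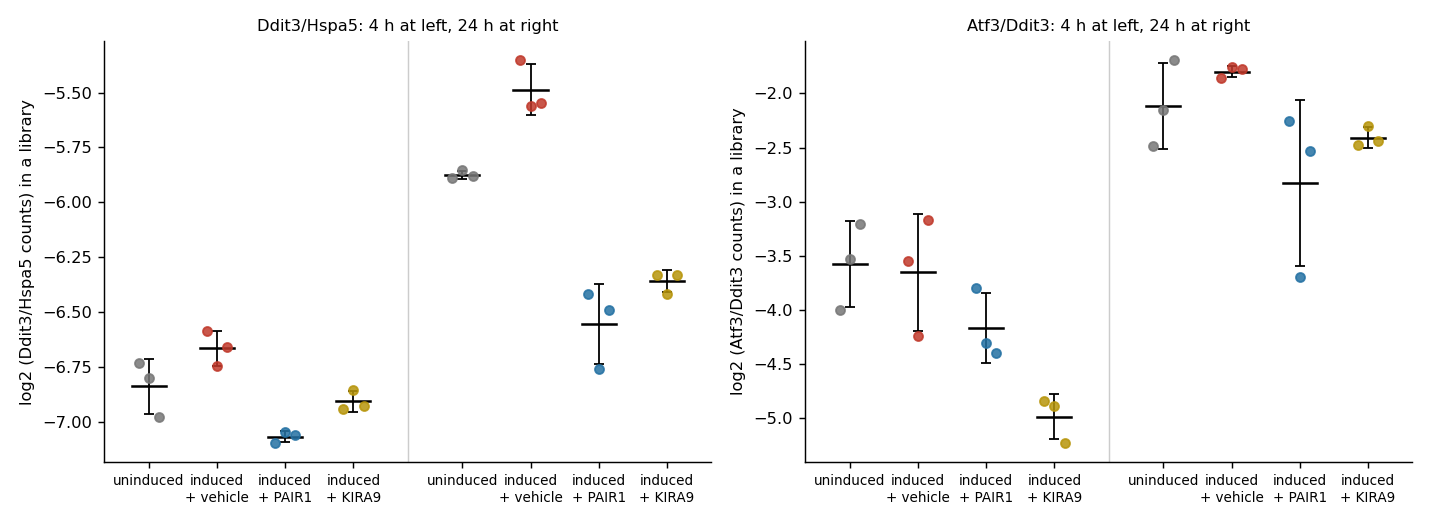
Log2 ratio of counts inside each library, Ddit3 to Hspa5 at left and Atf3 to Ddit3 at right; points are libraries, lines are group means and bars are SD (n = 3). At 24 h the Ddit3 to Hspa5 ratio of both compounds (means -6.55 and -6.36) lies below that of uninduced (-5.87) and induced cells (-5.49).

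The group means of the log2 ratio of Atf3 to Ddit3 were higher at 24 h than at 4 h in all 4 treatments. It was -3.58 ± 0.40 (SD, n = 3) without and -3.65 ± 0.54 with induction at 4 h, and adding PAIR1 or KIRA9 gave -4.17 ± 0.32 or -4.98 ± 0.21. At 24 h it was -2.11 ± 0.40, -1.80 ± 0.05, -2.83 ± 0.76 and -2.41 ± 0.09 in the same order. PAIR1 replicate 2 at 24 h, at -3.69, lay within the range of the 4 h libraries. The KIRA9 libraries at 4 h lay below every other library.

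Likeness to other genes was described over the 8 group means of log2 CPM, among 2046 IDs with at least 5 CPM in the highest group and a range of at least 1 on the log2 scale. Between the members themselves, Pearson's r was 0.66 for Hspa5 with Ddit3, 0.32 for Ddit3 with Atf3 and -0.47 for Hspa5 with Atf3. The ID most like Hspa5 was ENSRNOG00000009590 (r = 0.99), which was at 22.6 CPM in induced cells at 4 h, 28.8 with PAIR1 and 36.4 with KIRA9. The ID most like Ddit3 was ENSRNOG00000025764 (r = 0.93), at 49.5 CPM with KIRA9 at 4 h and 34.3 in induced cells at 24 h against 16.1 to 25.2 in the other groups. For Atf3 the highest r was 0.97. The 8 points share libraries between genes, these IDs have no names here, and no p is given.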

How the data were processed

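Poly(A) RNA of 24 samples was sequenced from NEBNext Ultra II libraries, per the labels' protocols. The deposited values are raw counts of reads for each Ensembl ID, which the authors made with HISAT2 and HTSeq per the submitters' processing notes. Versions, genome build, annotation and strand setting are not given in the sources used here. Reads from overlapping or antisense genes may therefore be mixed. Of 26689 IDs, 6523 had no count in any library. The RefSeq table used for names pairs 0 of its genes with Ensembl IDs, so the planned pathway and marker lists could not be read, and neither could the gene targeted by induction.

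IDs were kept with filterByExpr (minimum count 10), leaving 13760, scaled by TMM and fitted with edgeR 4.0.16 in R 4.3.3 as 1 quasi-likelihood model with a mean per group over all 24 libraries. P-values were Benjamini-Hochberg adjusted over all 13760 IDs and called below 0.05. Standard errors and 95% intervals come from the same F test. Log2 CPM and within-library ratios used an offset of 0.5. The members and lists were chosen with earlier results of these data known. Genes named are the members and, by likeness, the top ID per member; the 1 for Atf3 is not printed. Alternatives were DESeq2 1.42.0, other scalings, no filter, only compared groups, each library left out, a replicate block and the other time label. Data were simulated for KIRA9 against induced cells at 4 h (3 simulations, 200 of 13760 IDs changed). The changed IDs were drawn from those with a mean of at least 1 CPM. Of these, 62.7% of IDs changed by 0.5 and 87% of those changed by 1 on the log2 scale were recovered. Of the IDs called, 4.17% on average had not been changed. No replicate pair agreed within sampling noise (chi-square per degree of freedom 3.63 to 19.5).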

Additional observations from a re-analysis of the deposited data

Results flagged for a closer look

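Several contrasts gave different effects at 4 h and 24 h, by a test of that difference in edgeR's quasi-likelihood model. The induction effect was more positive at 24 h for Hspa5 (log2 difference 0.69 ± 0.03 SE), Ddit3 (0.90 ± 0.10) and Atf3 (1.19 ± 0.43). The difference between PAIR1 and KIRA9 was more positive at 24 h for Hspa5 (0.67 ± 0.03) and Ddit3 (0.64 ± 0.09). The effect of PAIR1 on induced cells was more negative at 24 h for Hspa5 (-0.88 ± 0.03, adjusted p = 9.4e-16), Ddit3 (-1.54 ± 0.09, adjusted p = 6.4e-12) and Atf3 (-1.83 ± 0.44, adjusted p = 0.0017). The effect of KIRA9 was too, for Hspa5 (-1.56 ± 0.03, adjusted p = 2.1e-20), Ddit3 (-2.19 ± 0.09, adjusted p = 5.1e-15) and Atf3 (-1.39 ± 0.43, adjusted p = 0.011). The last 2 contrasts share the induced libraries with each other and with the first.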

How the results depend on the processing

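Of 942 values, from 60 results each recomputed under its alternatives, 878 kept the direction and the side of the threshold. Reading the time of the 6 induced vehicle libraries from the conflicting characteristic changed 21 results. Induction at 4 h was then 0.0037 for Hspa5, 1.35 for Ddit3 and 3.14 for Atf3 on the log2 scale, and at 24 h -0.14 for Ddit3 and -1.63 for Atf3. Against induced cells at 4 h, PAIR1 gave -0.61 for Ddit3 and -2.98 for Atf3 and KIRA9 gave 0.21 (adjusted p = 0.0072, edgeR) for Ddit3, against 1.41 with the titles, and -2.99 for Atf3; at 24 h PAIR1 gave 0.24 and 1.16 and KIRA9 0.42 and 1.59. The difference of the induction effect between times was -1.49 and -4.77, that of induced cells -0.022 for Hspa5, -1.20 for Ddit3 and -2.98 for Atf3, that of PAIR1 against induced 0.86 and 4.14, and that of KIRA9 0.21 and 4.58. The rises of Hspa5 with both compounds at 4 h stayed called under this reading.

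Upper-quartile scaling and library totals moved the median of all IDs at 24 h by 0.10 to 0.13 for induction and by -0.085 to -0.14 for the compounds against induced cells. With upper-quartile scaling Hspa5 against induced cells at 24 h was 0.024 with PAIR1 and -0.025 with KIRA9, and 24 h against 4 h in induced cells was 0.12 and called. With library totals these 3 were -0.0011, -0.045 and 0.15. Without the filter the last was -0.00011. Atf3 at 4 h, never called with titles as labels, changed sign around 0: PAIR1 against induced was -0.0054 with upper-quartile scaling, -0.00018 with library totals and -0.0019 without the filter. KIRA9 against induced was 0.00026 with library totals, 0.025 with the replicate block, 0.00088 with DESeq2, 0.0013 with only the compared groups and 0.24 without the 6 libraries that stood apart. PAIR1 against KIRA9 was -0.00044 with library totals and -0.0045 with the replicate block. Without those 6 libraries, a setting chosen after seeing the data that leaves 1 induced library at 24 h, assumed to vary like the other groups, Atf3 induction at 4 h was -0.029. Its induction effect between times was 1.33 and its PAIR1 time difference 0.82, neither called. Hspa5 at 24 h was then 0.099 with PAIR1 and 0.078 with KIRA9 against induced cells, also not called.

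Beyond the sign changes given, the replicate block changed no call. Same-numbered libraries of different groups did not deviate together (median r = 0.010), and 9 of 24 lay nearest to their own number. No pairing by number was thus detected, though with 3 libraries per group a weak one could be missed. Leaving out 1 library gave, for Atf3, -0.074 to 0.41 for induction at 4 h, 0.94 to 1.42 for the induction effect between times, -0.25 to 0.24 for PAIR1 and -0.25 to 0.23 for KIRA9 against induced at 4 h, -0.032 to 0.30 and -0.020 to 0.29 for them against uninduced at 4 h, -0.19 to 0.11 for PAIR1 against KIRA9 at 4 h, -0.20 to 0.17 for KIRA9 against uninduced at 24 h and 0.82 to 1.52 for PAIR1 between times. For Ddit3 it gave -0.23 to -0.086 for PAIR1 against KIRA9 and 0.046 to 0.19 for PAIR1 against uninduced at 24 h. For Hspa5, PAIR1 against KIRA9 at 24 h ranged from -0.0058 to 0.023. The cause of these changes was not tested. Atf3 at 4 h rests on 22 to 55 counts per library.

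Counts of IDs called moved by over 1.5 times with only the compared groups fitted for induction (27 against 41), PAIR1 against induced (280 against 440) and PAIR1 against uninduced (198 against 351) at 4 h, and for KIRA9 against uninduced at 24 h (2070 against 3221) and uninduced cells between times (2219 against 3739). DESeq2 called 70 for induction at 4 h. Leaving out 1 library gave 196 to 231 for PAIR1 against uninduced and as few as 244 for PAIR1 against induced at 4 h, and 187 against 283 for PAIR1 against KIRA9 without PAIR1 replicate 1. Without the 6 libraries the counts at 4 h were 246 and 966 for PAIR1 and KIRA9 against induced and 161 and 944 against uninduced cells, and 2187 for uninduced cells between times. With the time from the characteristic, induction, PAIR1 and KIRA9 against induced gave 8700, 8733 and 8939 at 4 h (41, 440 and 1606 with the titles) and 3787, 4646 and 4218 at 24 h (8503, 7556 and 8660).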
